A study of Mus musculus with 9 samples.

Results

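Genes for the ligands and receptors of the epidermal growth factor (EGF) family were followed in basal epidermal cells around healing wounds of mouse tail skin. The group held 9 of the 17097 genes measured. They were 6 ligand genes (Tgfa, Ereg, Epgn, Hbegf, Btc and Egf) and 3 receptor genes (Egfr, Erbb2 and Erbb3), chosen by name wherever a probe set of the array carried that symbol alone. Together they had 19 probe sets, and each gene was measured by its brightest probe set over the 9 arrays, with the others given beside it.

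The arrays came from CD1 mice, whose age the labels do not give, at 4 days after a 3 mm punch wound. Leading edge (LE) cells were cut with a 4 mm punch and sorted as positive for α5 integrin, hub cells from the proliferating zone behind it were cut with a 6 mm punch and sorted as negative for α5 integrin, and control cells came from skin of the same wounded tails but far from the wound, with no α5 integrin gate in their labels. In every group the sort kept cells with α6 integrin, a basal cell marker, and without CD34, which excludes bulge cells of the hair follicle. Each group had 3 arrays, each from 300 cells of tissue pooled from 5 mice. The α5 integrin gate and the position relative to the wound cannot be told apart between the leading edge and the other groups. The labels name the arrays biological replicates and the methods call the samples technical, so p-values cover the spread between these arrays, which may be technical.

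EGF family ligands are made as precursors in the cell membrane and are released by ADAM proteases. They bind the EGF receptor on the same or a neighbouring cell, which then pairs with another EGF receptor, with ErbB2, which has no known ligand of its own, or with ErbB3, whose own kinase is weak and which is bound by neuregulins. The pairs signal through the ERK and PI3-kinase pathways, and in epidermis this signalling is known for driving keratinocyte growth and movement.

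Values below are log2 signals after RMA, and differences are log2 differences with their standard errors from limma, called where the Benjamini-Hochberg adjusted p over all 17097 genes was under 0.05. Median signal per array lay between 6.47 and 6.53, and probe sets for nonspecific background reached a 95th percentile of 7.40. Signals of different probe sets cannot be set against each other, so levels are compared only across arrays. The sorted markers followed the labels, with Itga5 at 9.06 to 9.17 on LE arrays, 6.46 to 7.47 on hub arrays and 6.23 to 6.50 on control arrays. The basal keratins Krt5 and Krt14 lay between 13.23 and 13.34 on all 9 arrays, and Cd34 between 4.50 and 4.95. In pooled cells, fewer cells with a transcript and less transcript per cell give the same signal.

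Of the 6 ligand genes, 4 were higher in LE cells than in hub cells and 0 were lower, where 5.39% of all genes were higher and 5.23% lower (10.6% in either direction). Their median difference was 1.05, against -0.005 over all genes. The 4 were Tgfa (transforming growth factor α), Ereg (epiregulin), Epgn (epigen) and Hbegf (heparin-binding EGF-like growth factor). The same 4 were higher in LE cells than in control cells, where 11.9% of all genes were higher (22.8% called in either direction). Against control skin, 2 of the 6, Tgfa and Ereg, were higher in the hub as well, where 4.16% of all genes were (7.28% called in either direction). By limma 0 of the 3 receptor genes rose in any of the 3 comparisons (0 also at an unadjusted p under 0.05). Each group enters 2 of these comparisons, so the comparisons are not independent.

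**Figure D1:**
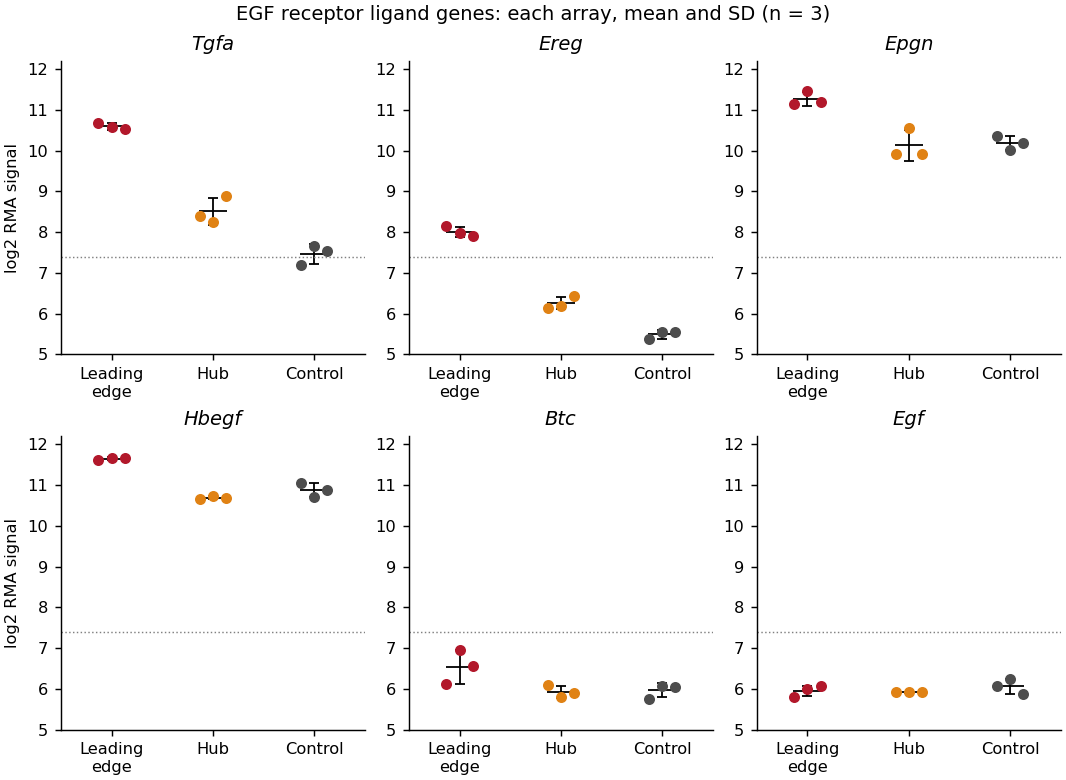
Log2 RMA signal (vertical axis) of the 6 ligand genes on each array (points), with the group mean and SD as black marks (n = 3) for leading edge, hub and control; the dotted line is the 95th percentile of nonspecific background probe sets, 7.40. Tgfa and Ereg step down from leading edge through hub to control, and Btc and Egf lie under the dotted line on all arrays. Epgn and Hbegf lie above that line in all groups and are highest at the leading edge, with hub and control arrays overlapping.

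Of the 9 genes, 6 had a promoter window in the RefSeq table of mouse build GRCm38.p6, which runs from 250 bases before to 50 after a start site. The windows of Tgfa and Epgn are shown because these 2 ligands rose with different patterns, one graded through the hub and one at the leading edge alone, and that of Egfr because the receptor gene went the other way. They lie at chr6:86194972-86195271, chr5:91027267-91027566 and chr11:16751953-16752252, all on the + strand and 5′ to 3′. Capitals mark matches on either strand to the Sp1 motif GGGCGG or to the TATA motif TATAAA.
Tgfa: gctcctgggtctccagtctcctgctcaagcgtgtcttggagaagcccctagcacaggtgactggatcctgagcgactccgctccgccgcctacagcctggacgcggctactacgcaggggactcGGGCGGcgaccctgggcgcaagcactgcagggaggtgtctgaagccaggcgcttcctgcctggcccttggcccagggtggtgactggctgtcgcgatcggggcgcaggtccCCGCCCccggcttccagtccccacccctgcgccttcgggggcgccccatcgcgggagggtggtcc
Epgn: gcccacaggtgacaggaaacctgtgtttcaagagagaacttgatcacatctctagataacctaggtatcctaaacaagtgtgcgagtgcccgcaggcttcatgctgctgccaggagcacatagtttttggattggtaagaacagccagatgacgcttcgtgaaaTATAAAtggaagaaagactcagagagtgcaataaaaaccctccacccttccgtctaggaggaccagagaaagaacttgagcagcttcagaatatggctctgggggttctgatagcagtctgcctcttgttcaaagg
Egfr: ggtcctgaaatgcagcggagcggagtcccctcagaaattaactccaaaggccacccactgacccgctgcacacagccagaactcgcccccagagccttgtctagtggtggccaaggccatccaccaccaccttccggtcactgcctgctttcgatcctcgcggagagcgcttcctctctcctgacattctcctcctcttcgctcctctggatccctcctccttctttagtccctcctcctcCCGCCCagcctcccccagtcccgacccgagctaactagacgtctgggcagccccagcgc
The Tgfa window held 2 matches to GGGCGG and none to TATAAA, with 70.7% G and C, a share exceeded by 8.16% of the 32851 windows in the table. The Epgn window held 1 match to TATAAA and none to GGGCGG, with 47.3% G and C, exceeded by 69.2% of windows. Egfr had 1 match to GGGCGG, close before the start site. GGGCGG occurs in 35.7% of all windows and TATAAA in 13.6%, so such matches are common, and each is a description of letters and not of a bound site. TGANTCA, the AP-1 motif, was searched on both strands as well and had 0 matches in the 7 windows of these genes, against 7.81% of all windows.

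Tgfa encodes a ligand that keratinocytes make themselves. It read 10.69, 10.59 and 10.53 on the LE arrays, 8.39, 8.25 and 8.89 on the hub arrays, and 7.19, 7.67 and 7.54 on the control arrays. Every LE array lay above every hub array, and every hub array above every control array, as held between hub and control for 14.4% of all genes. In LE cells Tgfa exceeded the hub by 2.10 ± 0.17 (4.28-fold, adjusted p = 8.1e-05) and control skin by 3.14 ± 0.17 (8.80-fold, adjusted p = 2.08e-06). In the hub it was higher than in control skin by 1.04 ± 0.17 (2.06-fold, adjusted p = 0.00638). Its control signals lay close to the 7.40 of nonspecific background. A total of 27 of the 17097 genes had a larger rise at the leading edge over the hub.

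The other 2 probe sets of Tgfa agreed on the leading edge and split on the hub. With every probe set tested on its own, all 3 were called higher in LE than in hub cells, by 0.71 to 2.10 (5% of all probe sets were called higher), and all 3 were higher than in control cells (10.9% of all probe sets were). One of them read 9.08, 9.12 and 8.95 on LE arrays, 7.12, 7.90 and 7.29 on hub arrays and 5.89, 6.04 and 6.42 on control arrays, with no overlap between groups. The other averaged 8.43 ± 0.24 in LE cells, 7.72 ± 0.15 in hub cells and 7.68 ± 0.17 in control cells (SD, n = 3), a hub difference of 0.03 ± 0.14 that missed the threshold (adjusted p = 0.947). The hub rise of Tgfa therefore rests on 2 of its 3 probe sets, in a comparison where 3.3% of all probe sets were called higher.

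Ereg encodes epiregulin, a ligand of the EGF receptor that also acts through ErbB4. Its single probe set read 8.15, 7.98 and 7.90 on the LE arrays, 6.14, 6.19 and 6.43 on the hub arrays, and 5.37, 5.55 and 5.55 on the control arrays. The 3 groups did not overlap, and their order was that of Tgfa. Ereg in LE cells exceeded the hub by 1.76 ± 0.10 (3.38-fold, adjusted p = 1.75e-05) and control skin by 2.52 ± 0.10 (5.74-fold, adjusted p = 5.08e-07). The hub stood above control skin by 0.76 ± 0.10 (1.70-fold, adjusted p = 0.00251). Hub and control signals of Ereg lay under 7.40, within the range of nonspecific background, where differences between dim signals are compressed.

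Epgn encodes epigen, a ligand with a low affinity for the receptor. It read 11.15, 11.47 and 11.19 on the LE arrays, 9.91, 10.57 and 9.91 on the hub arrays, and 10.36, 10.01 and 10.18 on the control arrays. The leading edge lay above both other groups, and the hub and control arrays overlapped. Epgn in LE cells stood above the hub by 1.14 ± 0.18 (2.21-fold, adjusted p = 0.00335) and above control skin by 1.09 ± 0.18 (2.12-fold, adjusted p = 0.00192). Between hub and control skin the difference was -0.06 ± 0.18 (95% interval from -0.46 to 0.35, adjusted p = 0.923), which leaves room for a difference in either direction. Hub replicate 2 was the high array of its group.

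Hbegf encodes heparin-binding EGF-like growth factor, another ligand of the EGF receptor. It had the tightest LE arrays of the 4 ligands that rose, at 11.62, 11.67 and 11.67, against 10.65, 10.72 and 10.69 in the hub and 11.05, 10.70 and 10.89 in control skin. All LE arrays lay above all others, while hub and control arrays overlapped. The leading edge was higher than the hub by 0.96 ± 0.09 (1.95-fold, adjusted p = 0.000178) and than control skin by 0.77 ± 0.09 (1.71-fold, adjusted p = 0.000211). The hub differed from control skin by -0.20 ± 0.09 (adjusted p = 0.267). The second probe set of Hbegf gave 0.86 ± 0.07 and 0.77 ± 0.07 for the leading edge against hub and control, both called, and -0.09 ± 0.07 for the hub.

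Btc (betacellulin) and Egf (EGF itself) gave signals under 7.40 on every array. Btc read 6.13, 6.95 and 6.55 in LE cells, 6.09, 5.81 and 5.89 in hub cells, and 5.76, 6.08 and 6.05 in control cells. Its LE arrays lay just above the hub arrays, as they did for 14.5% of all genes, and above the control arrays, as for 20% of all genes. The difference was 0.61 ± 0.19 from the hub (adjusted p = 0.0685) and 0.58 ± 0.19 from control skin (adjusted p = 0.0516), both short of the threshold. LE replicate 1 decided this: without it the values were 0.82 (adjusted p = 0.014) and 0.79 (adjusted p = 0.00826). The second, dimmer probe set of Btc differed by 0.12 ± 0.16 between leading edge and hub. Egf read 5.81 to 6.06 in LE cells, 5.91 to 5.92 in hub cells and 5.88 to 6.24 in control cells, and its differences lay between -0.15 and 0.04 with none called.

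**Figure D2:**
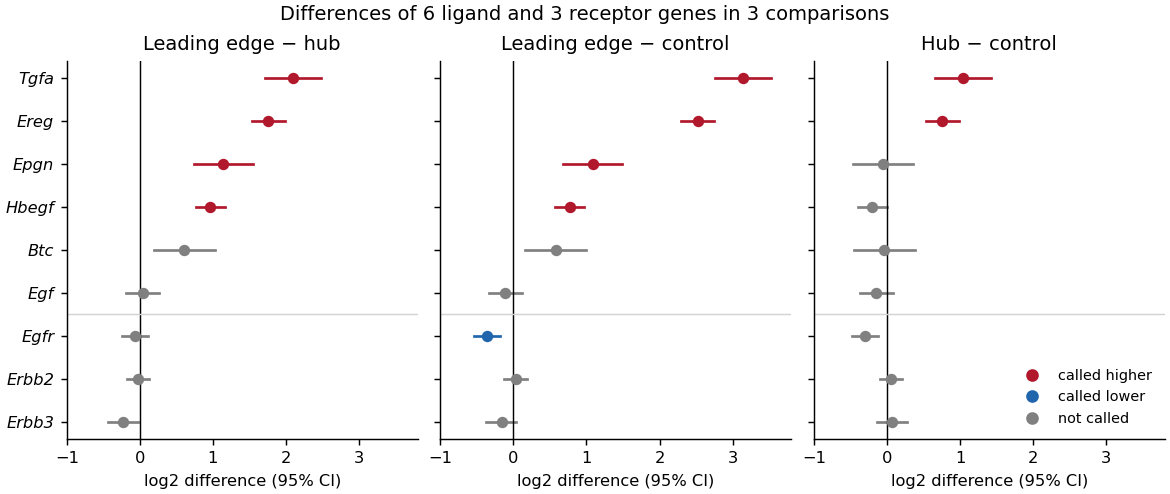
Log2 differences (horizontal axis, points) with 95% confidence intervals (lines) of the 6 ligand and 3 receptor genes in 3 comparisons from 1 limma fit; red marks genes called higher, blue called lower, gray not called. The intervals of Tgfa and Ereg lie above 0 in all 3 panels, those of Epgn, Hbegf and Btc (not called) in the first 2, and Egfr is the only gene called lower.

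Receptor genes changed little beside the ligands. Egfr read 10.69, 10.90 and 10.80 on the LE arrays, 10.85, 10.89 and 10.84 on the hub arrays, and 11.20, 11.06 and 11.23 on the control arrays. Both wound groups lay below control skin without overlap, the leading edge as for 16.2% of all genes, and they overlapped each other. Egfr was lower in LE than in control cells (-0.36 ± 0.08, 1.29-fold lower, adjusted p = 0.00848), where 10.8% of all genes were lower. The hub difference of -0.30 ± 0.08 just missed the threshold (adjusted p = 0.0507), where 3.12% of all genes were lower and 9.41% lay below control skin without overlap. Between leading edge and hub the difference was -0.06 ± 0.08, with a 95% interval from -0.24 to 0.11.

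All 6 probe sets of Egfr pointed the same way against control skin. Their differences ran from -0.57 to -0.12 at the leading edge, with 3 called lower (10.8% of all probe sets were), and from -0.55 to -0.15 in the hub, with 2 called lower (3.1% of all probe sets were). The largest fall in each came from a dim probe set called in both. It averaged 6.79 in LE, 6.81 in hub and 7.36 in control cells, under the 7.40 of nonspecific background. Another probe set, not called, also had all group means under 7.40. One of the probe sets called in both read 10.12, 10.19 and 10.23 in LE cells, 10.26, 9.95 and 10.09 in hub cells, and 10.64, 10.64 and 10.55 in control cells. Between leading edge and hub the 6 ran from -0.08 to 0.20 and 0 were called, higher or lower (4.54% of all probe sets were lower). With the mean of myeloid or endothelial markers as a covariate, an alternative chosen after the data were seen, the fall of Egfr at the leading edge missed the threshold (-0.22, adjusted p = 0.327, and -0.29, adjusted p = 0.0609). Both marker means were higher on each LE array than on any control array, so these fits cannot separate them from the region.

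Erbb2, the partner without a ligand, read 8.11, 8.11 and 8.07 in LE cells, 8.10, 8.18 and 8.09 in hub cells, and 8.03, 8.02 and 8.17 in control cells. The 3 groups overlapped, and the 95% interval of the difference between leading edge and hub ran from -0.18 to 0.13. Erbb3, which pairs with ErbB2 to bind neuregulins, read 9.91, 10.19 and 9.94 in LE cells, 10.28, 10.26 and 10.20 in hub cells, and 10.28, 10.16 and 10.09 in control cells. Its LE arrays lay just below the hub arrays (-0.23 ± 0.09, adjusted p = 0.152), as they did for 15.4% of all genes, and overlapped the control arrays. The second probe set of Erbb3 differed by -0.11 ± 0.11 between leading edge and hub. For both genes the intervals against control skin lay within -0.37 and 0.28.

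**Figure D3:**
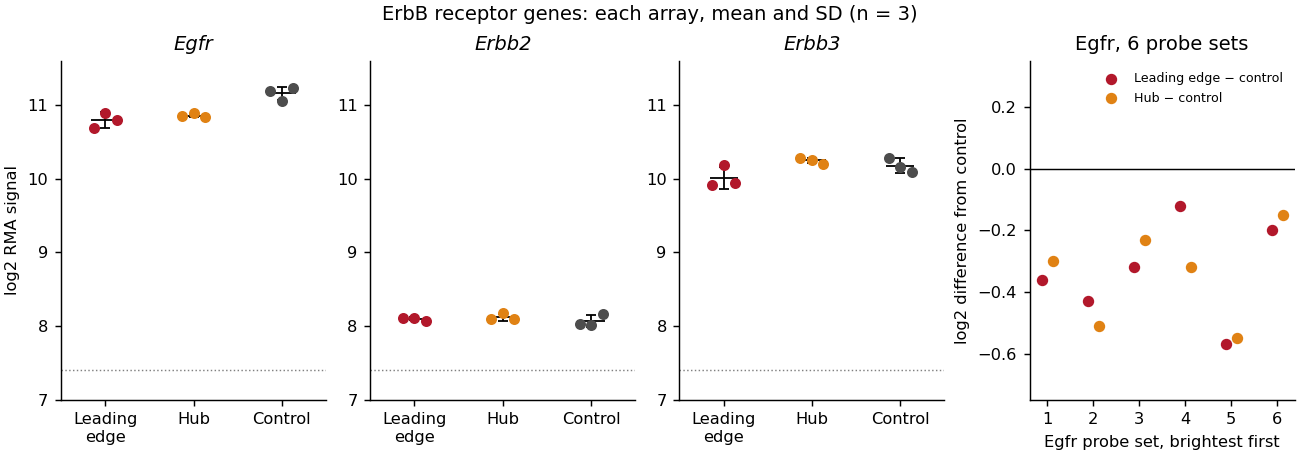
Log2 RMA signal (vertical axis of the first 3 panels, starting at 7) of the receptor genes on each array (points), with the group mean and SD (n = 3) for leading edge, hub and control, and the dotted line at 7.40, the 95th percentile of nonspecific background. The last panel gives the log2 difference from control of the 6 Egfr probe sets at the leading edge (red) and in the hub (orange), and all 12 points lie below 0.

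Arrays of a group varied little for these genes. The SD within a group had a median of 0.128 over the 9 genes and 3 groups, and the highest was 0.412, for Btc at the leading edge. Among the ligands, Epgn had its widest group in the hub (SD 0.38) and Tgfa likewise (SD 0.34), but the hub array that was high differed, being replicate 2 for Epgn and replicate 3 for Tgfa. Hbegf had an SD of 0.03 at the leading edge and 0.04 in the hub, against 0.17 in control skin.

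Markers of other cells were measured on the same arrays. The 14 myeloid markers averaged 6.67, 6.00 and 6.50 on LE arrays 1 to 3, 5.93 to 5.99 on hub arrays and 5.90 to 5.92 on control arrays, and their summed linear signal ran from 1001 to 1705, from 948 to 986 and from 934 to 949. On these arrays 2, 0 and 1 of the 14 exceeded 7.40 at the leading edge and 0 in the hub and control, and the pan-leukocyte gene Ptprc read 4.20 to 4.81 on the LE arrays. The macrophage gene Lyz2 read 8.25, 5.36 and 7.12 on the LE arrays, against 5.19 to 5.38 in the hub. Of the 14, 2 were called higher in LE than in hub cells and 0 lower, where 5.39% of all genes were higher and 5.23% lower. They were Cd14 (0.88 ± 0.14, adjusted p = 0.00422) and Cxcr2 (0.54 ± 0.12, adjusted p = 0.0172), both under 7.40 on all arrays. At an unadjusted limma p under 0.05, 6 of the 14 were higher than in the hub and 0 lower. Against control cells 3 were called higher and 0 lower, where 11.9% of all genes were higher and 10.8% lower. These were Lyz2 (1.85 ± 0.55, adjusted p = 0.039), Cd14 and Cxcr2. On LE replicate 2 Cd14 and Cxcr2 were above the hub range too, with Cd14 at 6.64 against 5.93 to 6.21 and Cxcr2 at 6.40 against 5.64 to 5.90. On LE replicates 1 to 3, Tgfa stood 2.18, 2.08 and 2.02 above its hub mean, and Ereg 1.90, 1.72 and 1.65. Epgn stood 1.02, 1.34 and 1.06 above its hub mean, and Hbegf 0.94, 0.98 and 0.98. With the myeloid mean as a covariate, an alternative chosen after the data were seen, the differences between leading edge and hub were 2.04 for Tgfa, 1.68 for Ereg, 1.40 for Epgn and 1.00 for Hbegf (adjusted p up to 0.0214). The myeloid mean was higher on each LE array than on any hub or control array. Neither this fit nor the single arrays can therefore separate it from the region.

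Of the 9 endothelial markers, 5, 0 and 0 exceeded 7.40 on LE replicates 1 to 3, 0, 3 and 2 on hub replicates 1 to 3, and 0 on the control arrays. Cdh5, an endothelial cadherin gene, read 9.73, 7.02 and 6.86 on LE arrays, 6.57, 8.39 and 8.42 on hub arrays, and 6.10 to 6.96 on control arrays. With their mean as a covariate, also chosen after the data were seen, the 4 ligands differed between leading edge and hub by 0.96 to 2.09 (adjusted p up to 0.00775). Langerhans cell markers averaged 7.16 to 7.83 in LE cells, 6.77 to 6.90 in hub cells and 6.87 to 6.96 in control cells, with H2-Ab1 called at the leading edge over hub (1.93 ± 0.37) and control (2.34 ± 0.37). Epcam was also called over the hub (1.04 ± 0.16), where it was lower than in control cells (-0.80 ± 0.16), and differed by 0.24 between leading edge and control (adjusted p = 0.343). The defining Langerhans gene Cd207 (langerin) lay between 5.02 and 5.44 on all arrays, under 7.40. Of the 6 T cell markers measured, 1 was called lower in LE cells than in hub cells and 0 higher, and the same held against control cells. Over all genes 5.23% were lower than in the hub and 10.8% lower than in control cells. That marker was Thy1, lower than in hub (-1.23 ± 0.13, adjusted p = 0.000361) and control cells (-1.28 ± 0.13). It read 8.61 to 9.15 on LE arrays, 10.04 to 10.13 on hub arrays and 10.03 to 10.28 on control arrays. The T cell genes Cd3e, Cd3g and Cd3d lay under 7.40 on all arrays, with none called. Of the 8 fibroblast markers measured, 1 was called lower than control in each wound group and 0 higher. Over all genes 10.8% were lower than control at the leading edge and 3.12% in the hub. That marker was Dcn, at 6.60 to 7.50 on LE arrays, 7.36 to 7.66 on hub arrays and 8.54 to 8.84 on control arrays. Col1a1 leaned the other way at the leading edge without a call, averaging 7.36 against 6.71 in control cells (0.65 ± 0.27, adjusted p = 0.115). Of the 6 melanocyte markers, 0, 0 and 2 exceeded 7.40 on LE replicates 1 to 3, and 1 on each hub and control array. On LE replicate 3 Tyrp1 read 7.77 against 5.05 to 5.29 on the other 8 arrays. At the leading edge against control, 1 of the 6 was called lower and 0 higher, where 10.8% of all genes were lower and 11.9% higher. It was Mitf (-0.50 ± 0.12, adjusted p = 0.0164), under 7.40 on all arrays. The part of myeloid, endothelial, Langerhans, T cell, fibroblast or melanocyte cells in the ligand and receptor differences was not tested.

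Epgn, Ereg and Btc lie together on chromosome 5. In GRCm38.p6, Epgn spans chr5:91027517-91035212, Ereg chr5:91074617-91093649 and Btc chr5:91357261-91402994, with 39404 bases between Epgn and Ereg and 375478 bases from the start of Epgn to the end of Btc. Another ligand gene of the cluster, Areg, was not analysed here. Of the flanking genes, Parm1, after Btc, had group means between 8.36 and 9.04, the lowest in control cells. It differed by 0.04 between leading edge and hub (adjusted p = 0.961), by 0.68 between leading edge and control (adjusted p = 0.0664) and by 0.64 between hub and control (adjusted p = 0.154). Mthfd2l, before Epgn, averaged 4.95 to 5.01 in the 3 groups, too dim to be read for a difference. Within the cluster the differences were 1.14 for Epgn, 1.76 for Ereg and 0.61 for Btc, the last not called. Tgfa on chromosome 6 and Hbegf on chromosome 18 rose from outside the cluster.

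For Tgfa and Ereg, the genes with the most similar profile were found by the root-mean-square difference of centred log2 signals over the 9 arrays, among the 17096 other genes. Nearest to Tgfa were Spsb1 (0.266), Fads3 (0.266), Car9 (0.269), Gprc5a (0.272) and Cyp26b1 (0.273). Nearest to Ereg were Cyp26b1 (0.115), Car9 (0.148), Tnnt2 (0.149), Odc1 (0.156) and Sema6d (0.160). Cyp26b1, which encodes an enzyme that breaks down retinoic acid, and Car9, a carbonic anhydrase, stood in both sets. Cyp26b1 averaged 10.63 in LE cells, 8.77 in hub cells and 8.03 in control cells, a graded order like that of Ereg.

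The rest of the pathway was read from lists of its parts. Among the other ErbB ligands and receptors, 1 of 5 measured was higher in LE than in hub cells and 0 were lower, where 5.39% of all genes were higher and 5.23% lower. This was the neuregulin gene Nrg1, whose product binds ErbB3 and ErbB4, at 9.07, 8.81 and 8.69 on LE arrays, 7.38, 7.71 and 7.64 on hub arrays, and 6.90, 7.55 and 7.23 on control arrays. Its LE arrays lay above all others, and the hub and control arrays overlapped. Nrg1 rose by 1.28 ± 0.17 over the hub (2.43-fold, adjusted p = 0.00118), and the hub differed from control skin by 0.35 ± 0.17 (adjusted p = 0.298). Erbb4, Nrg2, Nrg3 and Nrg4 differed by -0.11 to 0.10 between leading edge and hub, with none called, and Erbb4 lay between 5.22 and 5.43 on all arrays.

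Genes of ligand release showed no call between leading edge and hub, with 0 of 7 on either side by limma (0 higher and 1 lower before adjustment for many tests, at p under 0.05), and a median of 0.11. Adam17, the main protease for several of these ligands, lay between 10.23 and 10.52 on all arrays. Against control skin, 1 of the 7 was higher in the hub and 2 were lower, where 4.16% of all genes were higher and 3.12% lower. Timp3, an inhibitor of ADAM17, was at 8.12, 8.50 and 7.92 in the hub and 10.62, 10.42 and 10.54 in control skin (-2.35 ± 0.28, adjusted p = 0.00144), with no overlap. On LE arrays Timp3 read 7.84, 7.63 and 6.62, a larger fall from control skin (-3.16 ± 0.28, adjusted p = 3.6e-05). Its LE arrays also lay below the hub arrays, as for 15.4% of all genes, without a call (-0.82 ± 0.28, adjusted p = 0.101). Adam10, another such protease, rose in the hub over control skin by 0.47 ± 0.09 (adjusted p = 0.0119), and Rhbdf1, one of the iRhom genes that assist ADAM17, fell by 0.45 on the log2 scale (adjusted p = 0.00498). At the leading edge against control skin, 3 of the 7 were higher and 2 lower, where 11.9% of all genes were higher and 10.8% lower.

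Of the genes for brakes and turnover of the receptor, 2 of 18 rose at the leading edge over the hub and 1 fell, with a median of 0.19, in a comparison where 5.39% of all genes were higher and 5.23% lower. A count of 1 in 18 is near that share. Gprc5a, an orphan G protein-coupled receptor known in lung as a restraint on EGF receptor signalling, read 10.11, 9.95 and 9.91 on LE arrays, 7.55, 7.74 and 7.83 on hub arrays, and 6.70, 6.30 and 6.86 on control arrays. The groups did not overlap, in the same order as for Tgfa. It rose by 2.28 ± 0.14 over the hub (adjusted p = 2.06e-05), and in the hub by 1.08 ± 0.14 over control skin (adjusted p = 0.00215). Ptprj, a receptor phosphatase, rose by 0.64 ± 0.12 over the hub and by 1.11 ± 0.12 in the hub over control skin, with 1 of its 3 probe sets called. Lrig3, of a family of leucine-rich membrane proteins, was lower in LE than in hub cells (-0.88 ± 0.12, adjusted p = 0.00171), with 2 of its 3 probe sets called, from -1.18 to -0.12. Errfi1, which encodes a feedback inhibitor of the EGF receptor kinase, fell in the hub, at 10.25, 10.56 and 9.61, against 11.33, 11.48 and 11.85 in control skin (-1.41 ± 0.23, adjusted p = 0.00599). It read 10.33, 9.96 and 10.13 at the leading edge, overlapping the hub and also lower than control skin (-1.41 ± 0.23, adjusted p = 0.00157). In the hub against control skin, 2 of the 18 rose and 1 fell (over all genes, 4.16% rose and 3.12% fell). At the leading edge against control skin, 3 of the 18 rose and 2 fell (over all genes, 11.9% rose and 10.8% fell).

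Among adaptors and kinases, 3 of the 21 measured rose at the leading edge over the hub and 1 fell, with a median of 0.00 (over all genes, 5.39% rose and 5.23% fell). Map2k1, the kinase MEK1 above ERK, rose by 0.77 ± 0.12 (1.70-fold, adjusted p = 0.003) and the adaptor gene Grb2 by 0.45 ± 0.08 (adjusted p = 0.00561). Of the 2 probe sets of Grb2 only this one was called, and the other differed by 0.15. Pik3r1, a regulatory subunit of PI3-kinase, fell by 0.46 on the log2 scale, a call lost without LE replicate 1 or 3 or hub replicate 1 (adjusted p up to 0.0779). The call of Nras (0.29 ± 0.08, 1 of 3 probe sets called) was lost on removal of any of 5 arrays, LE replicate 2 or 3 or any hub array (adjusted p up to 0.139). In the hub over control skin, 1 of the 21 rose and 1 fell, near the 4.16% and 3.12% of all genes. They were Map2k2 (0.35 ± 0.08, 1 of 2 probe sets called) and Pik3r1 (-0.41 ± 0.11, 1 of 4), and single removals of 5 arrays for Map2k2 and 7 for Pik3r1 ended these calls (adjusted p up to 0.122 and 0.153).

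Genes used as readouts of ERK signalling moved in both directions. At the leading edge over the hub, 5 of 20 rose and 2 fell, with a median of 0.07 (over all genes, 5.39% rose and 5.23% fell). Dusp6, an ERK phosphatase induced by ERK, read 9.20, 9.22 and 9.31 on LE arrays, 8.29, 8.53 and 7.73 on hub arrays, and 8.49, 8.30 and 8.23 on control arrays. Its LE arrays stood alone at the top (1.06 ± 0.17 over the hub, adjusted p = 0.00395), as those of Epgn and Hbegf did. Phlda1 rose by 1.14 ± 0.23 (adjusted p = 0.0112) and Elk3, an ETS family factor, by 0.97 ± 0.14 (adjusted p = 0.00247). Spry1, a feedback inhibitor of receptor tyrosine kinase signalling, fell by 0.82 on the log2 scale (adjusted p = 0.00964).

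In the hub against control skin, 1 of these 20 readouts rose and 8 fell, with a median of -0.30 (over all genes, 4.16% rose and 3.12% fell). Fosl1, which encodes the AP-1 subunit FRA1, read 10.18, 10.45 and 9.93 in the hub and 11.42, 11.51 and 11.50 in control skin (-1.29 ± 0.12, adjusted p = 0.000361). Its LE arrays, at 11.01, 10.93 and 10.98, lay between these groups without overlap. Elk3 was the gene that rose in the hub (1.02 ± 0.14, adjusted p = 0.00334). Spry1 (-0.83 ± 0.16) lost its call without hub replicate 3 (adjusted p = 0.0529), and Ier2, an immediate early gene (-0.81 ± 0.16), without hub replicate 1 or 3 (adjusted p up to 0.0567). At the leading edge against control skin 4 of the 20 rose and 7 fell (over all genes, 11.9% rose and 10.8% fell).

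**Figure D4:**
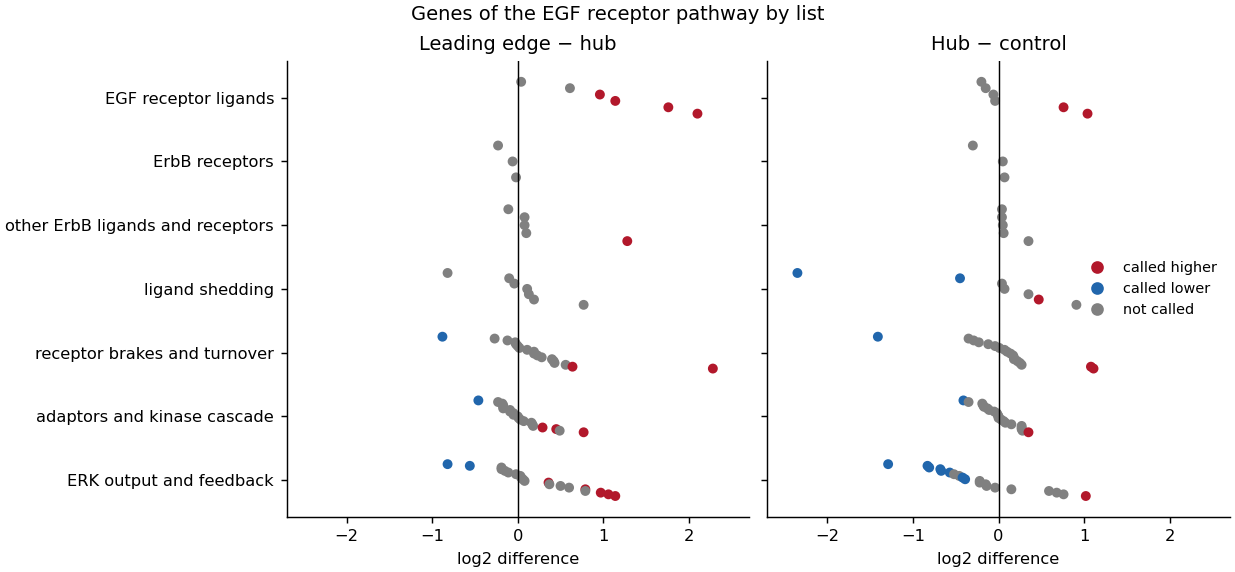
Log2 differences (horizontal axis) of single genes (points) in 7 lists of the EGF receptor pathway, for leading edge minus hub and hub minus control; red marks genes called higher, blue called lower, gray not called. In the list of ligands 4 points are red on the left and 2 on the right, and in the list of ERK readouts 8 points are blue on the right.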

How the data were processed

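Basal epidermal cells of mouse tail skin were profiled on 9 Affymetrix PM strip arrays of the mouse genome after amplification of cDNA from sorted cells. The authors processed the arrays with RMA (version not given in the sources used here), and the deposited values are log2 signals per probe set. RMA made their distributions similar over the arrays, with medians from 6.47 to 6.53, so a change of total RNA cannot be seen. Arrays have no read depth, and their number limits the precision.

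Of 45141 probe sets, 28898 carried 1 gene symbol in the platform annotation, giving 17097 genes by the probe set with the highest mean. Group means of all 9 arrays were fitted in 1 model (limma 3.58.1, R 4.3.3, lmFit and eBayes, two-sided, Benjamini-Hochberg adjustment over all genes), with no filter on dim genes. Tested on simulated data for leading edge against hub (17097 genes, 200 changed, 10 draws), it recovered 52.4% of changes of 0.5, 90.9% of changes of 1 and 99.1% of changes of 2 on the log2 scale, with 4.96% of calls false.

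The members and lists were chosen with earlier results of these data known. All members were named with all their probe sets. Pathway genes were named where called between leading edge and hub or hub and control, up to 4 per list and comparison by size, together with Adam17 and Erbb4 and genes of the chromosome 5 cluster, which were added after their values were seen. Some listed genes were not analysed here. The fit was repeated with array weights, with a trend of variance on mean, with the replicate number as a block, after another quantile normalization or a shift to a common median, without dim genes, on averaged or on single probe sets, on the 6 arrays compared, with fold rules, and without each array in turn. Promoter windows came from RefSeq (GRCm38.p6).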

Additional observations from a re-analysis of the deposited data

Results flagged for a closer look

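The difference from control skin was unlike in the leading edge and the hub for 4 of the 9 genes. The test was that of leading edge against hub itself, already given above. The leading edge stood above the hub by 2.10 for Tgfa, 1.76 for Ereg, 1.14 for Epgn and 0.96 for Hbegf on the log2 scale. Tgfa and Ereg were called higher than control in both regions, whereas Epgn and Hbegf were called higher at the leading edge and missed the threshold in the hub.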

How the results depend on the processing

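The rises of Tgfa, Ereg, Epgn and Hbegf at the leading edge over hub and control, and those of Tgfa and Ereg in the hub, kept direction and call in each of the 20 alternatives run for them, with adjusted p up to 0.045. By the methods' rule, read as over 2-fold between arrays of each shared number, 2 ligands were counted at the leading edge against hub, 2 against control and 0 in the hub, and 0 receptors at the leading edge against control. With a 2-fold minimum beside the test, 1 ligand was called in the hub and 0 receptors at the leading edge against control. Btc passed the threshold in 5 of 19 alternatives against hub and 7 of 19 against control, among them the mean-variance trend, array weights and the absence of LE replicate 1. Egfr in the hub against control was called in 7 of 20, so the count of receptors called there was 1 with the trend, repeated quantile normalization, the common median, dim genes left out or the mean of all probe sets, and 0 to 1 on leaving out single arrays. With the myeloid or the endothelial covariate 0 receptors were called at the leading edge against control, in fits that cannot separate these markers from the region.

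Small differences changed sign. Egfr between leading edge and hub became 0.01 with the mean of all probe sets and 0.07 with the myeloid covariate, which also turned Erbb3 against control to 0.05 and Btc in the hub against control to 0.02 (0.27 with the endothelial covariate). On leaving out single arrays, Btc in the hub ran from -0.14 to 0.03, Epgn in the hub from -0.28 to 0.05, Egf between leading edge and hub from -0.01 to 0.11 and Erbb2 there from -0.04 to 0. None of these was called, and the cause was not tested.

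Over all genes, 1816 were called in LE against hub cells, 3891 in LE against control cells and 1244 in hub against control cells. With every probe set tested, a larger table, the first 2 became 2756 and 6278. With a 2-fold minimum the 3 counts were 319, 803 and 186, and by the fold rule 178, 515 and 89. The myeloid covariate gave 669 and 1628 for the first 2, the endothelial covariate 645 for the third, and only the 6 arrays compared 766 for the third, which ran from 699 to 1153 on leaving out single arrays (699 without hub replicate 3 and 774 without hub replicate 2). Among same-numbered arrays, 0 of 9 pairs had deviations from group means correlated over 0.1, and 2 of 9 arrays were closest to an array of their own number. Whether same-numbered arrays came from the same mice is not stated, and correlations over 3 arrays a group cannot settle it. With the replicate block the counts were 1629, 3661 and 1006, with 4, 4 and 2 ligands and 0, 1 and 0 receptors called. Btc, Egf and the hub and control values of Ereg lay within nonspecific background, which limits their folds.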
